A study of Mus musculus with 24 samples.

Results

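Whrn, Asb4, Tenm4, Plppr5 and Fam78b are 5 of the 38321 gene IDs counted in poly(A) RNA-seq libraries of mouse gingiva and of the dentoalveolar complex (DAC), the jaw tissue that holds the teeth and their bone. They were selected on their measured RNA levels in the DAC, where they were higher in estradiol-treated mice, so their changes between treatments in the DAC are given as a description with no test. The 24 libraries fall into 6 groups of 4, from 2 tissues and 3 treatments, all of wild-type female C57BL/6J mice aged 11 weeks at the start. OVXE2 mice were ovariectomized and received 1 µg of estradiol benzoate per day under the skin in 100 µL of corn oil from day 4. OVX mice were ovariectomized and received the vehicle. Sham mice had the sham operation, kept their ovaries and received the same vehicle as OVX mice. All 3 groups carried silk ligatures around the upper second molars from day 7 and were sampled on day 14, so every library comes from ligature-induced periodontitis and there is no unligated control. Replicates are labelled as biological, but no label ties a library to a mouse or says whether mice gave both tissues, so p-values measure the spread between these samples.

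Estradiol acts mainly through estrogen receptors, transcription factors that bind DNA or other DNA-bound factors, and it is known in bone for restraining resorption and in marrow for reducing B lymphocyte formation. The 5 genes belong to unrelated families. Whrn encodes whirlin, a PDZ scaffold protein known from the stereocilia of hair cells and from photoreceptors. Asb4 encodes an ankyrin repeat and SOCS box protein, a substrate adaptor of cullin-5 ubiquitin ligases. Tenm4 encodes a teneurin, a large transmembrane adhesion protein whose family binds latrophilins. Plppr5 encodes a phospholipid phosphatase-related membrane protein that induces filopodia in cultured cells, and Fam78b encodes a protein of poorly known function.

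All 5 were annotated as protein-coding genes in GENCODE on build GRCm38. Whrn (ENSMUSG00000039137) lies at chr4:63414910-63495991 on the minus strand. The other 4 lie on the plus strand, Asb4 (ENSMUSG00000042607) at chr6:5383386-5433022, Tenm4 (ENSMUSG00000048078) at chr7:96171246-96911093, Plppr5 (ENSMUSG00000033342) at chr3:117574836-117689507 and Fam78b (ENSMUSG00000060568) at chr1:167001417-167091302. Tenm4 overlaps 11 other annotated genes, 9 of them on the opposite strand and 2 of them microRNA genes on its own strand, and the other 4 genes overlap none.

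RefSeq promoters on build GRCm38.p6 were matched for 4 of the 5 genes, 6 start sites in all, and Fam78b was not matched. The 250 bases before 1 start site of each gene are shown, since the genes were higher together and their start regions can be compared. Capitals mark every match, on either strand, to 8 motifs: the palindromic estrogen response element, GGTCA (nuclear receptor half-site), TGANTCA (AP-1), GGGCGG (SP1), TGTGGT (RUNX), the MEF2 motif, TGACG (CRE half-site) and the core promoter box TATAAA. A full estrogen response element holds 1 GGTCA on each strand, so these motifs overlap.
Whrn: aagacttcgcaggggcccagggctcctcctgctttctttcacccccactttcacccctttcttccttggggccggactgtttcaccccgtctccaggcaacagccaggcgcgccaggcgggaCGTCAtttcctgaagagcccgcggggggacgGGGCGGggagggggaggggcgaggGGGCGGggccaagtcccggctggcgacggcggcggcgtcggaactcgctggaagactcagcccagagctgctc
Asb4: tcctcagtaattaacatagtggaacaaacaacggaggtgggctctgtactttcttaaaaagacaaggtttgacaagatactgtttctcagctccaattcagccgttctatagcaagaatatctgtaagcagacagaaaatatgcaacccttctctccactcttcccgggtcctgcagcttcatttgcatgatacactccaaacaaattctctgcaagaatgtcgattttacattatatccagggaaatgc
Tenm4: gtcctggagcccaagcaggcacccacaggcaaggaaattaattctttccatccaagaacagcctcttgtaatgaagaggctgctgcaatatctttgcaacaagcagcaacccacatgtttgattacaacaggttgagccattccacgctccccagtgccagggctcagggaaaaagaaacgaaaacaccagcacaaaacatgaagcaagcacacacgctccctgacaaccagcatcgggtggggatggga
Plppr5: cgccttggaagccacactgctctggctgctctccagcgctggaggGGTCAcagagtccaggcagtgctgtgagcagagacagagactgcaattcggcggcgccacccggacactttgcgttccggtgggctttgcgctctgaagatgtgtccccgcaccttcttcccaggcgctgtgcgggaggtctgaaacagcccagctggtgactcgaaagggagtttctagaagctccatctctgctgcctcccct
These windows are chr4:63495992-63496241 on the minus strand for Whrn, and on the plus strand chr6:5383136-5383385 for Asb4, chr7:96170994-96171243 for Tenm4 and chr3:117574977-117575226 for Plppr5, which starts inside the GENCODE gene.

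The 4 genes with a promoter did not share a motif. Over 300 bases, from 250 before to 50 after the start, the Whrn promoter held GGGCGG at 2 places, at -97 and -73, and TGACG on the opposite strand at -128. Plppr5 held GGTCA at -205, and neither start site of Asb4 or of Tenm4 held any of the 8 motifs. Of 32817 RefSeq promoters of that length, 35.6% held GGGCGG, 20.8% TGACG, 40.5% GGTCA and 0.0701% the full estrogen response element. The others were held by 7.81% (TGANTCA), 16.8% (TGTGGT), 3.69% (MEF2) and 13.6% (TATAAA). Base composition differed widely: Whrn had 70.0% G and C with 29 CpG dinucleotides, and Asb4 40.3% with 6 at its first start, against a median of 52.7% and 7 over all promoters. A match of letters is a description and does not show binding.

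Libraries held 14771830 to 29248358 gene counts, with 16830 to 19142 genes counted, and 3.38 to 9.03% of stranded gene reads fell on the strand that was not counted. Libraries of a group all differed beyond counting noise. In the DAC the Osteoblasts list, which includes the bone matrix genes Col1a1 and Bglap, took 14.3 to 17.4% of counts in OVXE2, 12.5 to 17.9% in OVX and 13.9 to 15.2% in Sham libraries, against 0.466 to 1.39% across gingiva libraries. DAC OVX replicate 1 stood apart with 13.8% of its counts in nasal and salivary gland markers. OVXE2 replicate 2, OVX replicate 1 and Sham replicates 2 and 4 were the 4 DAC libraries richest in brain neuron markers, at most 0.0485% of counts. None of the 9 brain markers was at 0 in a DAC library. Bulk libraries do not place the 5 genes in a cell type, so they are not called stromal here, and fewer cells of a type and less RNA per cell cannot be told apart.

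In the DAC all 5 genes were higher in OVXE2 than in OVX and Sham libraries, by 2.07 to 3.08 times the OVX mean and 1.91 to 3.05 times the Sham mean, while OVX means were 0.920 to 1.04 times the Sham means. For every gene the lowest OVXE2 library was above the highest OVX and the highest Sham library. Over all 13617 genes tested, all 4 OVXE2 libraries were above all 4 OVX libraries for 3.22% and above all 4 Sham libraries for 2.63%. By edgeR's quasi-likelihood test with Benjamini-Hochberg adjustment, 0.676% of genes were called higher and 1.45% lower in OVXE2 against OVX, and 0.389% higher and 0.661% lower in OVXE2 against Sham. The list was named for this difference, so nothing is read from these shares. Levels are given in CPM, gene counts divided by the TMM-scaled library size of the tissue's fit unless stated otherwise, and log2 changes are edgeR fits with their standard errors.

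**Figure D1:**
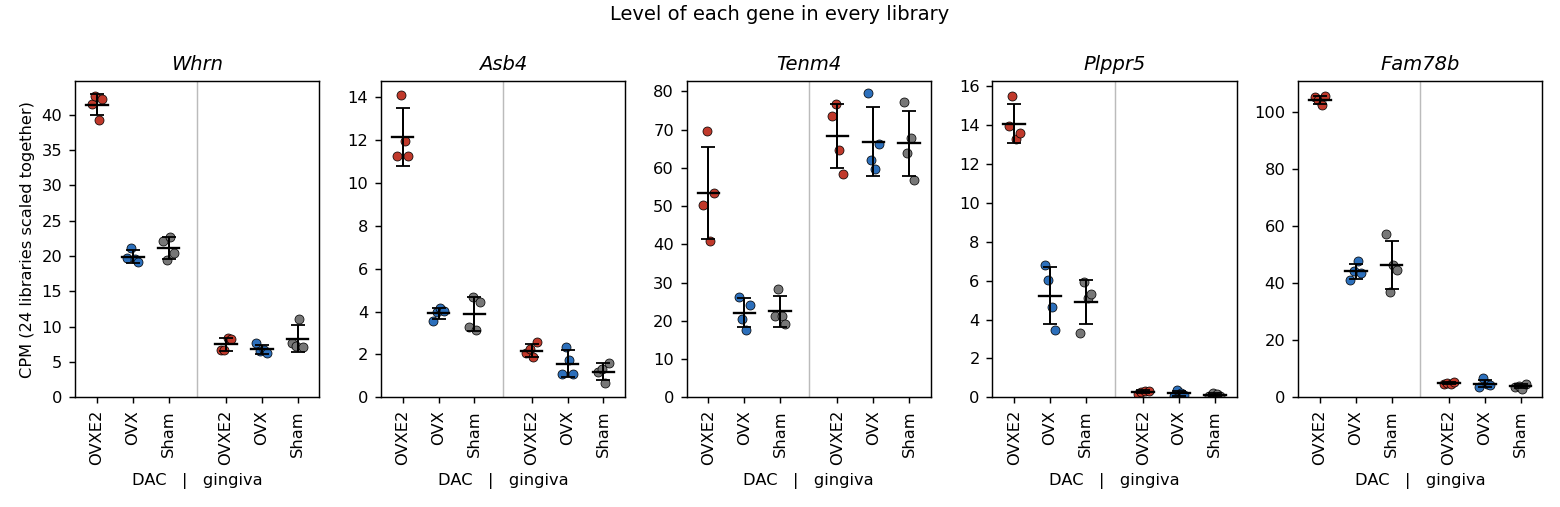
CPM of each gene in every library (points; 24 libraries scaled together), with the group mean and SD (bars), for OVXE2, OVX and Sham in the DAC on the left and in gingiva on the right of each panel. The OVXE2 DAC libraries stand above the OVX and Sham DAC libraries for all 5 genes, and Tenm4 is the gene whose gingiva libraries reach the same or higher levels.

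Whrn, the scaffold gene, had 42.1, 43.8, 42.7 and 43.0 CPM in the OVXE2 DAC libraries, against 20.2, 21.8, 21.01 and 19.8 CPM in OVX and 23.6, 20.5, 24.3 and 21.8 CPM in Sham. The 4 OVXE2 values were nearly equal and far from the others, and OVX and Sham overlapped. The mean was 42.9 ± 0.683 CPM in OVXE2, 20.7 ± 0.893 CPM in OVX and 22.5 ± 1.73 CPM in Sham (SD, n = 4 each). The log2 change was 1.05 ± 0.07 for OVXE2 against OVX, 0.93 ± 0.07 for OVXE2 against Sham and -0.12 ± 0.07 for OVX against Sham.

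Asb4, the ubiquitin ligase adaptor gene, had the largest log2 change of the 5. Its values were 11.4, 14.4, 13 and 11.5 CPM in OVXE2, 3.63, 4.10, 4.46 and 4.16 CPM in OVX, and 3.48, 4.94, 3.35 and 4.74 CPM in Sham. Every OVXE2 library was above 11 CPM and every other DAC library below 5 CPM, with OVX inside the Sham range. The log2 change was 1.62 ± 0.16 for OVXE2 against OVX, 1.61 ± 0.16 for OVXE2 against Sham and -0.01 ± 0.16 for OVX against Sham. The highest OVXE2 value was in replicate 2 and the highest Sham values in replicates 2 and 4, all among the 4 libraries richest in brain neuron markers. OVX replicate 1, the other of these 4, had the lowest OVX value. The part of those markers was not tested, and without those 4 libraries the log2 change for OVXE2 against OVX was 1.498 ± 0.14.

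Tenm4, the teneurin gene, varied most among the OVXE2 libraries. It had 50.9, 71.4, 44.3 and 54.4 CPM in OVXE2, 26.8, 21.2, 18.9 and 25.1 CPM in OVX, and 22.6, 29.8, 22.7 and 20.4 CPM in Sham. The highest OVXE2 and Sham values were both in replicate 2 and the highest OVX value in replicate 1. Each is among the 4 libraries richest in brain neuron markers. The other of these 4, Sham replicate 4, had the lowest Sham value, and the part of those markers was not tested. Without those 4 libraries the log2 change for OVXE2 against OVX was 1.20 ± 0.13. Over all libraries it was 1.26 ± 0.17 for OVXE2 against OVX, 1.21 ± 0.17 for OVXE2 against Sham and -0.05 ± 0.17 for OVX against Sham.

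Plppr5, the membrane protein gene, had 14.1, 15.9, 14.4 and 13.9 CPM in OVXE2, 6.99, 6.22, 4.99 and 3.59 CPM in OVX, and 3.52, 6.28, 5.49 and 5.68 CPM in Sham. The OVXE2 libraries lay close together, whereas OVX and Sham spread over about the same range. As for Tenm4, the highest OVXE2 and Sham values were in replicate 2 and the highest OVX value in replicate 1. They are among the 4 libraries richest in brain neuron markers. The other of these 4, Sham replicate 4, was inside the range of the other Sham libraries, and the part of those markers was not tested. Without those 4 libraries the log2 change for OVXE2 against OVX was 1.52 ± 0.24. The coefficient of variation was 6.18% in OVXE2, 27.3% in OVX and 22.9% in Sham. The log2 change was 1.42 ± 0.22 for OVXE2 against OVX, 1.48 ± 0.22 for OVXE2 against Sham and 0.06 ± 0.22 for OVX against Sham.

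Fam78b had 106.5, 106.7, 111.1 and 107.5 CPM in OVXE2, 42.3, 45.5, 51.1 and 45.1 CPM in OVX, and 60.8, 38.8, 49.7 and 47.8 CPM in Sham. The OVXE2 libraries were again the tightest group, and the Sham range enclosed the OVX range. The log2 change was 1.23 ± 0.12 for OVXE2 against OVX, 1.13 ± 0.12 for OVXE2 against Sham and -0.10 ± 0.11 for OVX against Sham. Per kilobase of merged exons Fam78b was the most abundant of the 5 in the OVXE2 DAC, at 17.1 CPM per kb, followed by Whrn at 5.85, Asb4 at 3.20, Plppr5 at 3.11 and Tenm4 at 2.63 CPM per kb.

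Among all 13617 genes ordered by log2 change for OVXE2 against OVX, Asb4 stood at place 61, Plppr5 at 79, Tenm4 at 104, Fam78b at 108 and Whrn at 144. Both comparisons with OVXE2 use the same OVXE2 libraries, so their values are set side by side and not as separate support. The median log2 change over all genes tested was 0.02 for OVXE2 against OVX. Without DAC OVX replicate 1, the library rich in gland markers, the log2 changes for OVXE2 against OVX were 1.04 for Whrn, 1.57 for Asb4, 1.35 for Tenm4, 1.56 for Plppr5 and 1.19 for Fam78b. Without the 4 libraries richest in brain markers they were 1.03, 1.498, 1.20, 1.52 and 1.20 in the same order of genes.

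**Figure D2:**
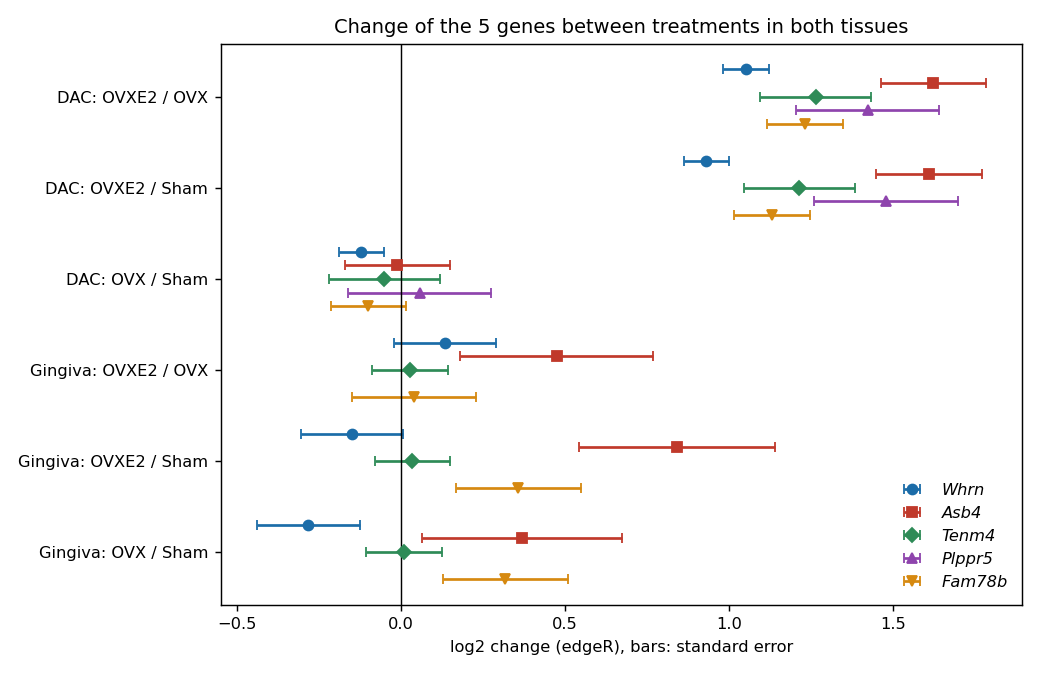
Fitted log2 change (points) with its standard error (bars) for each gene in 3 comparisons in the DAC and 3 in gingiva, the first-named group over the second. DAC changes with OVXE2 run from 0.93 to 1.62, and the gingiva changes of the 4 genes tested run from -0.28 to 0.84; Plppr5 is not drawn in gingiva because it did not pass the filter on low counts.

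In gingiva, 0 of 4 tested members passed edgeR's test in any of the 3 comparisons. The list was named for the DAC, and whether gingiva values also had a part in the choice is not known. The background was 0.00% of 12680 genes in each, with 1766 genes at an unadjusted p under 0.05 for OVXE2 against OVX, 939 for OVXE2 against Sham and 1530 for OVX against Sham. Of the members, only Asb4 for OVXE2 against Sham was at an unadjusted p under 0.05, and DESeq2 called 0 members, with no adjusted p given for OVX against Sham. DESeq2 called 92, 8 and 44 genes in the same order of comparisons.

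Asb4 in gingiva had 1.95, 2.13, 1.77 and 2.47 CPM in OVXE2, 1.04, 2.28, 1.67 and 1.04 CPM in OVX, and 1.12, 1.29, 0.640 and 1.54 CPM in Sham. The OVXE2 values were all above the Sham values and overlapped the OVX values. All 4 OVXE2 libraries were above all 4 Sham libraries for 2.26% of genes. The log2 change for OVXE2 against Sham was 0.84 ± 0.30 (edgeR, unadjusted p = 0.0149, adjusted p = 0.635, higher in 4 of 4 libraries), and for OVXE2 against OVX it was 0.47 ± 0.29 (edgeR adjusted p = 0.482). The gingival values rest on 12 to 62 counts per library. Skeletal muscle markers took 0.175 to 0.554% of counts in OVXE2 gingiva, 0.0711 to 0.256% in OVX and 0.0335 to 0.205% in Sham, with 0 of 9 past edgeR's test for OVXE2 against Sham (7 at an unadjusted p under 0.05, 0 by DESeq2), and their part in the Asb4 level was not tested.

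Whrn in gingiva averaged 7.12 ± 0.924 CPM in OVXE2, 6.49 ± 0.594 CPM in OVX and 7.92 ± 1.82 CPM in Sham (SD, n = 4 each), and its groups overlapped. Its log2 change for OVXE2 against OVX was 0.13 ± 0.16 (edgeR adjusted p = 0.729, interval -0.17 to 0.44). Tenm4 averaged 65.1 ± 7.94 CPM in OVXE2, 63.9 ± 8.23 CPM in OVX and 63.5 ± 8.24 CPM in Sham. Its log2 change for OVXE2 against OVX was 0.03 ± 0.12 (edgeR adjusted p = 0.943, interval -0.20 to 0.25).

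Fam78b in gingiva averaged 4.68 ± 0.415 CPM in OVXE2, 4.57 ± 1.26 CPM in OVX and 3.64 ± 0.651 CPM in Sham, with overlapping groups. Its log2 change was 0.04 ± 0.19 for OVXE2 against OVX and 0.36 ± 0.19 for OVXE2 against Sham (edgeR adjusted p = 0.95 and 0.717). Plppr5 had 1 to 8 counts per gingiva library, too few for the filter. Its level was 0.166, 0.282, 0.328 and 0.318 CPM in OVXE2, 0.0863, 0.371, 0.226 and 0.125 CPM in OVX, and 0.0798, 0.201, 0.160 and 0.0385 CPM in Sham, from 27, 17 and 11 counts summed over the 4 libraries of each group. The OVXE2 mean was 2.28 times the Sham mean, with 1 OVXE2 library inside the Sham range. With no filter on low counts, the log2 change for OVXE2 against Sham was 1.20 ± 0.57 (edgeR, unadjusted p = 0.0491, adjusted p = 0.785), and for OVXE2 against OVX it was 0.47 ± 0.53 (edgeR adjusted p = 0.765). Whether the treatment difference itself differs between the tissues was not tested, because the list was named from the DAC.

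Between the tissues the genes did not behave as one group. Of the 5 genes, 4 passed the filter on low counts in both tissues, and Plppr5 passed it in the DAC alone, so Plppr5 is given without a test. In Sham mice, with 24 libraries in one edgeR fit, Whrn, Asb4 and Fam78b were higher in the DAC than in gingiva and Tenm4 was lower. Of 14209 genes in that fit 75.1% were called, 39.7% higher in the DAC and 35.4% lower, and of the 12131 that passed the filter in both tissues 73.9% were called, 36.0% higher and 37.9% lower. The DAC Sham libraries also took part in selecting the genes, and nothing is read from how many of them were called. A selection of genes higher in OVXE2 than in Sham favours low DAC Sham values. That acts against a higher DAC and toward a lower DAC, the direction of Tenm4. A selection on a clear change in the DAC can also favour genes well counted there, which acts the other way. Its net direction is not known, so the p-values between the tissues are given as a description. Fam78b had 46.3 ± 8.41 CPM in DAC Sham and 3.81 ± 0.686 CPM in gingiva Sham, a log2 difference of 3.60 ± 0.16 (edgeR adjusted p = 5.97e-14). Whrn had 21.1 ± 1.52 CPM in the DAC and 8.28 ± 1.90 CPM in gingiva, a log2 difference of 1.36 ± 0.12 (edgeR adjusted p = 1.45e-09). The lowest DAC Sham library of Whrn, at 19.4 CPM, was above its highest gingiva Sham library, at 11.1 CPM.

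Asb4 had 3.88 ± 0.794 CPM in DAC Sham and 1.20 ± 0.398 CPM in gingiva Sham, a log2 difference of 1.67 ± 0.24 (edgeR adjusted p = 2.73e-06). Plppr5 had 4.92 ± 1.14 CPM in the DAC and 0.125 ± 0.0772 CPM in gingiva. Its sums were 419 counts in the DAC and 11 in gingiva, a ratio of 44.5 after division by the total gene counts with an exact 95% interval of 24.6 to 89.9 that covers counting error only. Tenm4 had 22.4 ± 3.98 CPM in the DAC and 66.4 ± 8.47 CPM in gingiva, a log2 difference of -1.57 ± 0.16 (edgeR adjusted p = 1.78e-08). Low DAC Sham values, which the selection can favour, act toward this direction, so the p-value of Tenm4 is not read as support.

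On the scale of 24 libraries, the OVXE2 DAC was the highest of the 6 groups for Whrn, Asb4, Plppr5 and Fam78b, and its range did not overlap the next group. For these 4 genes the OVX and Sham DAC groups came next, overlapping each other, and the 3 gingiva groups were lowest, overlapping their neighbours in gingiva and none of the DAC groups. Tenm4 had another order, with 68.3 ± 8.38 CPM in OVXE2 gingiva, 66.9 ± 8.92 CPM in OVX gingiva and 66.4 ± 8.47 CPM in Sham gingiva above 53.5 ± 12.01 CPM in the OVXE2 DAC. These 4 groups overlapped in order, and the Sham and OVX DAC groups lay below them at 22.4 and 22.1 CPM.

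The 5 genes followed each other over the 12 DAC libraries, with a Pearson's r of log2 CPM of 0.83 to 0.98 over 10 pairs. This likeness includes the group difference for which they were named and has no test. After the group means were taken out, Whrn and Fam78b kept a positive r of 0.69, while the 6 pairs of Whrn or Fam78b with Asb4, Tenm4 or Plppr5 had an r of -0.65 to -0.14. The 3 pairs among Asb4, Tenm4 and Plppr5 had 0.18 to 0.26, a weak relation over 12 libraries. All these points share library depth and scaling.

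**Figure D3:**
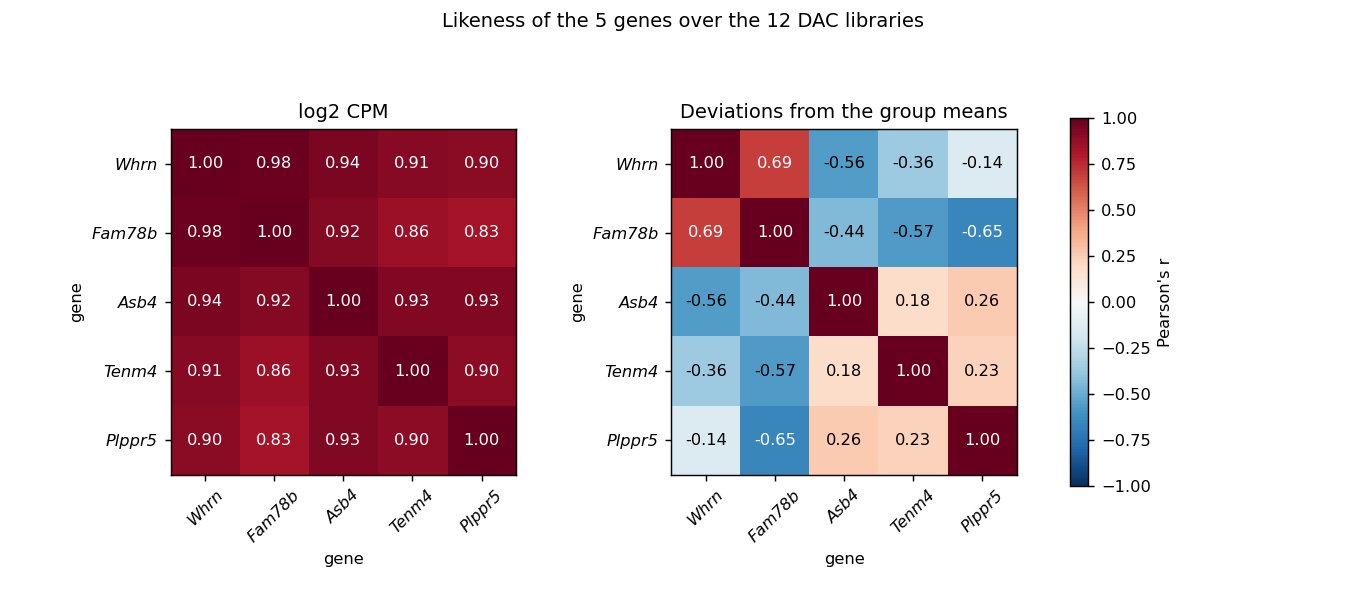
Pearson's r between the genes over the 12 DAC libraries, of log2 CPM on the left and of deviations from the group means on the right. All pairs are at 0.83 or higher on the left, and on the right Whrn with Fam78b is at 0.69 while their pairs with the other 3 genes are below 0.

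Of 10097 genes, those most like Whrn by r of log2 CPM were Colgalt2, a collagen galactosyltransferase gene (0.98), Fam78b (0.98) and Shox2, a homeobox gene of limb and palate development (0.98). Fam78b had Whrn (0.98), Colgalt2 (0.97) and Shox2 (0.97) as its nearest. On deviations from the group means, Colgalt2 had an r of 0.55 with Whrn and 0.47 with Fam78b, and Shox2 had 0.50 with Fam78b. Shox2 averaged 101 ± 9.26 CPM in OVXE2, 51.0 ± 4.52 CPM in OVX and 51.4 ± 5.65 CPM in Sham DAC libraries, and its deviations from the group means followed those of Whrn with an r of 0.72. Asb4 was most like Arhgef7, a guanine nucleotide exchange factor gene (0.96), Aldh1a2, which makes retinoic acid (0.96), and Rhobtb1 (0.95). On deviations their r with Asb4 was 0.71, 0.24 and 0.44 in the same order.

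Tenm4 was most like Pi15, a peptidase inhibitor gene (0.97), Mef2a, a transcription factor gene (0.97), and Trpc6, a cation channel gene (0.96). On deviations their r with Tenm4 was 0.82, 0.76 and 0.73 in the same order. Plppr5 was most like Kcnk1, a potassium channel gene (0.94), Dixdc1 (0.93) and Asb4 (0.93), with an r of 0.73, 0.66 and 0.26 on deviations. Leaving out each DAC library in turn, Colgalt2 and Fam78b stayed among the 3 nearest to Whrn in 12 of 12, Arhgef7 for Asb4 and Pi15 for Tenm4 in 12 of 12, and Asb4 for Plppr5 in 3 of 12.

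The relatives and binding partners of the 5 genes mostly did not pass the test in the DAC for OVXE2 against OVX, where 2.13% of all genes were called. Of 13 whirlin partners 0 passed edgeR's test (median log2 change -0.07, 0 at an unadjusted p under 0.05, 0 by DESeq2), with Eps8, an actin regulator of stereocilia, at -0.29 ± 0.17 and the scaffold gene Cask at 0.10 ± 0.10. Of 16 ASB and cullin-5 ligase genes 0 passed (median -0.14, 0 unadjusted, 0 by DESeq2), with Asb14 at -0.87 ± 0.47 and Asb15 at -1.08 ± 0.70. Of 6 teneurin and latrophilin genes 0 passed (median 0.18, 1 unadjusted), with the latrophilin gene Adgrl2 at 0.40 ± 0.12 (edgeR adjusted p = 0.145), which DESeq2 called, and Adgrl1 at 0.14 ± 0.08. Of 12 PLPPR and lysophosphatidate genes 0 passed (median 0.10, 0 unadjusted, 0 by DESeq2), with the lysophosphatidate receptor gene Lpar1 at 0.12 ± 0.06 and Plppr4 at 0.79 ± 0.41.

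Fam78a, the paralog of Fam78b, fell in the DAC of OVXE2 mice, the direction opposite to that of Fam78b. Its log2 change was -0.75 ± 0.14 for OVXE2 against OVX (edgeR adjusted p = 0.0163), and -0.41 ± 0.14 for OVXE2 against Sham (edgeR adjusted p = 0.328). The call for OVXE2 against OVX was lost under 5 of 22 alternatives, with DAC OVX replicate 4 or DAC OVXE2 replicate 1 left out among them (edgeR adjusted p = 0.0557 and 0.0625). Of 48 family genes 0 passed edgeR's test in the DAC for OVXE2 against Sham (3 at an unadjusted p under 0.05) or for OVX against Sham (1 unadjusted), with 0 by DESeq2 in both. Of 46 tested in gingiva 0 passed in each comparison by edgeR, with 11 unadjusted for OVXE2 against OVX, 7 for OVXE2 against Sham and 6 for OVX against Sham, and DESeq2 called 1, Adgrl2, for OVX against Sham and 0 in the other two.

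Between the tissues in Sham mice, 34 of the 46 family genes that passed the filter on low counts in both tissues passed edgeR's test, 18 higher and 16 lower in the DAC, a share of 73.9% beside the same 73.9% of all such genes. Clrn1 and Plppr1 passed that filter in the DAC alone and are given without a test, at 13 to 30 and 31 to 65 counts per DAC library, against 0 to 5 and 0 to 2 per gingiva library. Of the whirlin partners, Myo7a, Cdh23, Pcdh15, Cib2, Mpp1 and Lrrc4c were higher in the DAC, as Whrn was, and Eps8, Eps8l2, Cask, Gpsm2 and Gnai3 were lower. Of the ASB and cullin-5 genes, Asb1 and Asb3 were higher, as Asb4 was, and Asb7, Asb16, Cul5, Rnf7 and Arih2 were lower. Tenm2 (-3.58 on the log2 scale) and Adgrl2 (-1.72) were lower in the DAC, as Tenm4 was, and Adgrl1, Adgrl3 and Flrt3 were higher. Plppr2, Plppr3, Plppr4, Plpp3, Lpar1 and Lpar4 were higher, and Plpp2, Lpar2, Lpar5 and Lpar6 were lower. Fam78a was higher in the DAC by 2.68 on the log2 scale, beside 3.60 for Fam78b.

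Beside the 5 genes, other lists moved in the same DAC comparison. Of 11 classical estrogen-responsive genes, Pgr, the progesterone receptor gene (2.37 ± 0.45), and Stc2 (0.61 ± 0.12) rose, and Esr1, an estrogen receptor gene (-0.56 ± 0.12), and Ltf (-1.20 ± 0.26) fell by edgeR's test. Of 22 alternatives, the call was lost under 7 for Pgr, 11 for Stc2, 17 for Esr1 and 14 for Ltf. These 22 count the fit without DAC OVX replicate 1 again as the fit without the gland-rich library. Of 10 endothelial genes 4 rose, with a list median of 0.44 and Cdh5 (0.57 ± 0.08), Kdr and Tie1 the largest. The call was lost under 10 of 22 alternatives for Kdr, 3 for Cdh5 and 3 for Tie1. The other called gene had an edgeR adjusted p of 0.0480, and Cdh5 alone of the 10 was also called against Sham. The endothelial list took 0.136 to 0.153% of counts in OVXE2, 0.0924 to 0.119% in OVX and 0.117 to 0.128% in Sham. Of 7 B cell precursor genes 6 fell (median -2.98), among them Rag2 (-3.66 ± 0.32), Rag1 and Vpreb3. Of 10 immature neutrophil genes 9 fell (median -1.65), among them Fcnb (-2.38 ± 0.30), Prtn3 and Mpo. These 9 include Ltf, which is on both this list and the estrogen-responsive list and is counted in each. The call was lost under 1 of 22 alternatives for Rag2, Rag1, Vpreb3 and Fcnb, and under 2 for Prtn3 and Mpo. The B cell precursor and immature neutrophil lists took 0.00447 to 0.00686% and 0.124 to 0.172% of counts in OVXE2, against 0.0175 to 0.0233% and 0.315 to 0.447% in OVX. The part of these cell types in the levels of the 5 genes was not tested.

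The lists of osteoblasts, osteocytes, marrow stroma and periodontal ligament had medians from -0.12 to 0.12, and other cell lists of the jaw had higher ones. Of 10 osteoblast genes 1, Ibsp, a bone matrix gene, rose for OVXE2 against OVX (0.64 ± 0.15, edgeR adjusted p = 0.0487), with a list median of -0.04. Its call was lost under 21 of 22 alternatives, with a log2 change of 0.53 to 0.72 in those, and DESeq2 called it. Of 8 osteocyte genes 0 passed (median 0.12, 1 unadjusted, 0 by DESeq2), and of 8 marrow stromal genes 0 passed (median -0.03, 1 unadjusted, 0 by DESeq2). Of 6 periodontal ligament genes 0 passed edgeR's test (median -0.12, 1 unadjusted, 1 by DESeq2).

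The 8 osteoclast genes, markers of the cells that resorb bone, all had a positive change (median 0.40), where 55.1% of all genes tested did. None of them passed edgeR's test, 7 were at an unadjusted p under 0.05 and DESeq2 called 2. The osteoclast list took 1.04 to 1.18% of counts in OVXE2, 0.579 to 0.959% in OVX and 0.912 to 1.11% in Sham. Sham overlapped OVXE2, and the lowest OVX share was in replicate 1, the library rich in gland markers. For OVXE2 against Sham the osteoclast median was 0.125, with 1 gene at an unadjusted p under 0.05. For OVXE2 against OVX, 5 of 5 smooth muscle and pericyte genes were positive (median 0.42, 2 unadjusted). Of them 1, the pericyte gene Rgs5, rose (0.47 ± 0.08, edgeR adjusted p = 0.0116). The Rgs5 call was lost under 3 of 22 alternatives, among them the fit without the 4 libraries richest in brain neuron markers (edgeR adjusted p = 0.0986). The list took 0.0852 to 0.101% of counts in OVXE2, 0.0605 to 0.0744% in OVX and 0.0678 to 0.0776% in Sham. Of 4 chondrocyte genes (median 0.34, 3 positive) 1, the cartilage proteoglycan gene Acan, fell (-0.61 ± 0.12, edgeR adjusted p = 0.0284), against the sign of the list median. The Acan call was lost under 11 of 22 alternatives, 6 of them leaving out 1 library (DAC OVX replicate 1, 2 or 3, or DAC OVXE2 replicate 1, 3 or 4), where the edgeR adjusted p was 0.0605 to 0.100. Of 7 odontoblast and ameloblast genes 0 passed (median 0.29, 1 unadjusted, 0 by DESeq2). The part of these cells in the levels of the 5 genes was not tested. Brain neuron markers had a median of 0.56 with 0 of 9 past the test (0 unadjusted, 0 by DESeq2), and their share was 0.00528 to 0.0163% in OVXE2 and 0.00480 to 0.0190% in OVX.

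**Figure D4:**
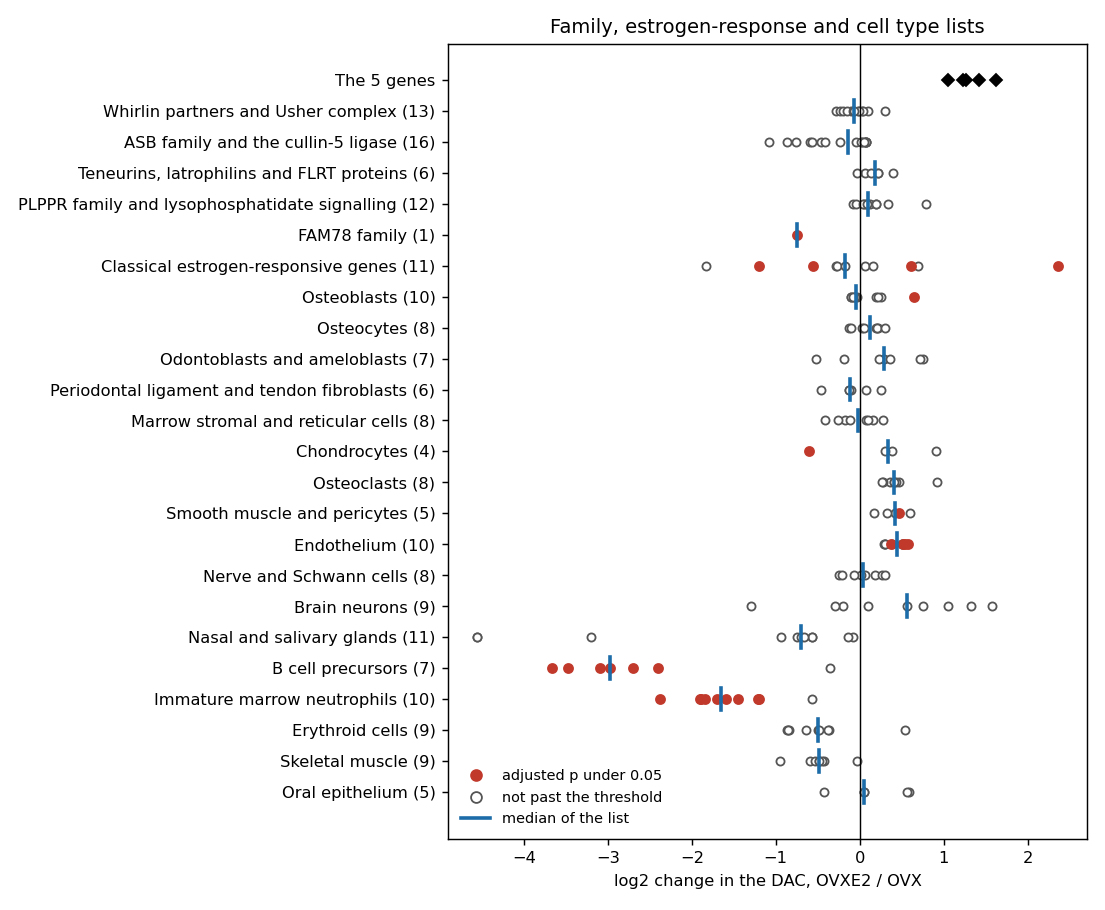
Log2 change for OVXE2 against OVX in the DAC of the 5 genes (diamonds) and of the genes of each list (circles, filled where the edgeR adjusted p is under 0.05; bars: list median; number of genes tested in brackets). The 5 genes lie between 1.05 and 1.62, while the osteoblast, osteocyte, marrow stromal and ligament lists have medians of -0.12 to 0.12, the osteoclast, mural, chondrocyte and odontoblast lists 0.29 to 0.42, and the B cell precursor list -2.98.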

How the data were processed

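Per the labels, poly(A) RNA was sequenced from 24 samples. Per the submitters' processing notes, fastp, STAR and DESeq2 were used with GRCm38 (mm10). For their versions and the annotation release, the sources used here give nothing. The deposited values are raw counts per gene, 1 table per library, and column 4, the strand holding most reads, was used. The 4 lines of reads assigned to no gene stayed out of library sizes and tests; reads on no feature were 19.8 to 32.2%. GENCODE M21 named 38186 of 38321 IDs.

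After filterByExpr and TMM scaling, edgeR 4.0.16 (robust glmQLFit, glmQLFTest, R 4.3.3) tested counts over 12680 gingiva, 13617 DAC and 14209 joint genes, with Benjamini-Hochberg adjustment at 0.05. Fits used the 12 libraries of a tissue, or all 24 for the tissues, with group means only. Intervals of log2 changes are 95% intervals from the standard error. Likeness used log2 CPM with a prior count of 2. The fits were tested on simulated data. Alternatives were DESeq2 1.42.0, its size factors, no filter, other libraries or strands, a replicate block and leaving out each library. Sets alike in opposite-strand share (5% or more, or less) were added after the data were seen. The counts of alternatives in the DAC include the set of lower share, which held 1 OVXE2 library. Leaving out the gland-rich library is the same fit as leaving out DAC OVX replicate 1, and both are counted.

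The members and lists were chosen with earlier results of these data known. Named genes are the 5 members; in each family list every gene past the test in a comparison, otherwise, for OVXE2 against OVX in the DAC, the 2 of smallest p; in each cell list up to 3 of largest change past the test, for that same comparison; and the 3 nearest genes of each member. Esr1, the fourth of the estrogen-responsive list, was named after its values were seen.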

Additional observations from a re-analysis of the deposited data

Results flagged for a closer look

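Of 48 groups of 4 libraries looked at, 30 for the 5 genes, each on 2 scalings of the same libraries, and 18 for marker lists, 3 held a library far from the others. Chance alone flags about 1 in 20 groups. Whrn in gingiva Sham replicate 3 was at 11.1 CPM on the scale of 24 libraries, with the nearest Sham library at 7.74 CPM. On the scale of the gingiva libraries alone it was at 10.6 CPM, and its gap fell just short of the critical value. Brain neuron markers took 0.0190% of counts in DAC OVX replicate 1, with the nearest OVX library at 0.00593%. Nasal and salivary gland markers took 13.8% of counts in the same library, with the nearest at 1.66%. In that library Whrn had 20.2 CPM, inside the range of the other OVX libraries, Asb4 3.63 CPM and Fam78b 42.3 CPM, both below it, and Tenm4 26.8 CPM and Plppr5 6.99 CPM, both above it.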

How the results depend on the processing

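For OVXE2 against OVX and against Sham in the DAC, all 5 genes kept a positive change under all 22 alternatives, and in gingiva 0 members were called under all 20. In Sham, Whrn, Asb4, Tenm4 and Fam78b passed between the tissues under all 32. The selection can act toward the lower DAC of Tenm4, and its net direction is not known. In the DAC, the set of higher opposite-strand share held 3 OVXE2, 2 OVX and 3 Sham libraries. The set of lower share held only 1, 2 and 1 in the same order. An effect of strand share and the loss of libraries cannot be told apart there. Plppr5 in the DAC for OVXE2 against OVX was 1.79 at higher share and 1.09 at lower share. For OVXE2 against Sham, Asb4 was 1.27 at lower share and Whrn 0.84 without the 4 libraries richest in brain markers. For OVX against Sham, Asb4 was 0.31 without those 4 and -0.31 at lower share, and Tenm4 0.21 at lower share; members with a positive change numbered 1, but 2 with no filter, without those 4 libraries and at lower share, and 0 to 3 leaving out 1 library. The cause was not tested.

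Genes called in the DAC for OVXE2 against OVX numbered 290, but 598 by DESeq2 and 189 with only these groups fitted. They numbered 122 without the brain-rich libraries, 39 at higher opposite-strand share and 176 to 290 leaving out 1 library. For OVXE2 against Sham they numbered 143, but 340, 64, 37 and 16 in the same order, and 61 to 164 leaving out 1 library. The set of lower share held 1 OVXE2 library, so no count is given for it. For OVX against Sham they numbered 0, and 10 by DESeq2. In gingiva, 0 genes were called, but DESeq2 called 92 for OVXE2 against OVX, 8 for OVXE2 against Sham and 44 for OVX against Sham; for OVXE2 against OVX it was 2 with no filter and 0 to 60 leaving out 1 library, 60 without OVX replicate 3.

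Same-numbered DAC libraries had a median r of 0.0048 between deviations from the group means (-0.348 to 0.348). Between the tissues the median r was 0.0106 for same-numbered libraries (-0.334 to 0.434) and -0.0326 for differently numbered ones (-0.374 to 0.339). These pairs mix treatments, and numbers may differ between tissues. Whether mice gave both tissues cannot be told from them. With the replicate block, 2 genes were called in gingiva for OVXE2 against OVX, and the block changed no call of a member. Low counts limit Plppr5 and Asb4 in gingiva.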
